A study of Mus musculus with 12 samples.

Results

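The BCL2 family genes described here are 10 genes that set the threshold for mitochondrial apoptosis, followed through RNA sequencing of mouse liver cancer organoid cells. The members are Bcl2, Bcl2l1, Bcl2l2 and Mcl1 (anti-apoptotic), Bcl2l11, Bik, Bid, Bmf and Bad (BH3-only), and Bak1 (effector). They are the listed family genes apart from Bax, Bbc3 and Pmaip1, and they were found by matching the Ensembl identifiers of the count table to gene symbols. All 10 were among the 47069 genes of the table and all 10 were among the 16157 genes that passed the filter on low counts.

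Each of the 12 libraries came from cells of liver cancer organoids, which are cultures grown in a gel from tumor cells, and all carried the Lgr5-DTR-GFP knock-in allele on a C57BL/6 background. In this allele the promoter of Lgr5, a receptor that marks stem cells in several organs, drives a diphtheria toxin receptor and a green fluorescent protein, so that LGR5+ cells can be sorted by their GFP. The groups were untreated LGR5- cells, untreated LGR5+ cells, LGR5- cells after 5-fluorouracil (5-FU, a uracil analog used in chemotherapy) and LGR5+ cells after 5-FU, with 3 libraries in each. The tumors had been induced with diethylnitrosamine, and the sorting described by the study left out dead cells by propidium iodide and leucocytes by CD45, so that the RNA is that of surviving cells. The study describes tumor induction in young mice and 5-FU treatment of organoids, but the sources used here do not tie an age at tumor collection, a number of organoid lines, or a dose and duration of 5-FU to these libraries. Nothing in the labels says that replicates were separate cultures or animals, and the P values therefore measure only the spread between these libraries.

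The BCL2 family controls whether the outer mitochondrial membrane is opened. The effectors BAK and BAX form pores that release cytochrome c, the anti-apoptotic proteins (BCL2, BCL-XL, BCL-W and MCL1) hold them in check, and the BH3-only proteins (BIM, BID, BAD, BMF, BIK and others) bind the anti-apoptotic members or activate the effectors. Hepatocytes depend on BCL-XL and MCL1 for survival, and DNA damage raises transcription of several family genes through p53. Much of the regulation is on the protein, including the cleavage of BID, the phosphorylation of BAD and the rapid turnover of MCL1, and RNA counts do not show it.

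The members share the BH3 motif, a short helix that in BH3-only proteins docks into the groove of the anti-apoptotic members. The coding stretch of that motif is shown for each member because it is the one element that all 3 roles have in common. The lines give 36 bases of coding strand, read 5′ to 3′ from the GENCODE M21 principal transcripts on GRCm38, and capitals mark the codon of the conserved leucine (a methionine codon in Bcl2l2) and the codon of the conserved aspartate.
Bcl2: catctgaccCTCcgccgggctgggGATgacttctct
Bcl2l1: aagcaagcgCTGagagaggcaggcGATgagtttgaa
Bcl2l2: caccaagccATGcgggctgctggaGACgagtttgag
Mcl1: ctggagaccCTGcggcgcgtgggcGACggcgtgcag
Bcl2l11: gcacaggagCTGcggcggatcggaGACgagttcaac
Bik: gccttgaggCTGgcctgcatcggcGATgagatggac
Bid: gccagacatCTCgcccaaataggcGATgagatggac
Bmf: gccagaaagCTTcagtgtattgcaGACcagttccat
Bad: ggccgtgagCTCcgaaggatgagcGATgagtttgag
Bak1: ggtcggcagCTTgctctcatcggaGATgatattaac

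Among the anti-apoptotic members, the stretch lies in exon 1 of 2 in Bcl2 (chr1:106712575-106712610, minus strand), in exon 2 of 3 in Bcl2l1 (chr2:152829697-152829732, minus strand), in exon 3 of 4 in Bcl2l2 (chr14:54884508-54884543, plus strand) and in exon 1 of 3 in Mcl1 (chr3:95659427-95659462, plus strand). Among the BH3-only members it lies in exon 3 of 4 in Bcl2l11 (chr2:128147141-128147176, plus strand), exon 3 of 5 in Bik (chr15:83543075-83543110, plus strand), exon 4 of 6 in Bid (chr6:120897289-120897324, minus strand), exon 4 of 5 in Bmf (chr2:118545100-118545135, minus strand) and exon 3 of 4 in Bad (chr19:6950783-6950818, plus strand). In Bak1 it lies in exon 4 of 6 (chr17:27022531-27022566, minus strand). The pattern searched for in the translated transcripts was leucine, any 3 residues, then glycine, alanine or serine, then aspartate. In Bcl2l2, which holds no such match, the same pattern with methionine in place of leucine was used. The leucine pattern is short, and 33.8% of 21588 principal coding genes hold it, so a match alone does not mark a family member.

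Counted reads per library ranged from 13750591 to 19323514. At that depth a count of 0 allows up to 0.155 to 0.218 CPM (counts scaled to the library's total), where this limit covers counting error only, and each member lay above it in every library. Together the members took 0.0374% to 0.0793% of the reads. The share of mitochondrial reads was 1.47% to 3.08% in 10 libraries and higher in the other two, LGR5- replicate 3 untreated (6.93%) and after 5-FU (6.44%), and the 5-FU responses of LGR5- cells are given with and without them. Lgr5 itself, the gene behind the sort, was at 23.0 to 36.0 CPM in untreated LGR5- and 23.3 to 27.5 CPM in untreated LGR5+ libraries, and at 18.3 to 35.9 and 26.8 to 27.2 CPM after 5-FU, so that its RNA overlapped between the sorted populations under either condition. The libraries most alike across all genes were untreated LGR5- replicate 1 and untreated LGR5+ replicate 1, whose counts differed with a chi-square of 4.42 per degree of freedom, while pairs within a group had 15.1 or more. CPM here are scaled by edgeR's TMM factors.

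Levels can be compared between genes only per length, and were set on the scale of CPM per kilobase of annotated exon. The 10 members spanned a wide range. Mcl1 had the highest mean over the 12 libraries, 48.1 CPM per kilobase (29.8 to 77.4), followed by Bad at 33.8 (27.6 to 40.6), Bcl2l1 at 26.9 (13.8 to 45.5) and Bid at 19.4 (11.1 to 27.6). Bcl2l11, which encodes BIM, was at 6.29 (3.55 to 10.3), Bik at 3.70 (2.73 to 4.61), Bcl2 at 1.90 (1.29 to 2.77), Bcl2l2 at 1.83 (1.27 to 2.84), Bak1 at 1.42 (0.918 to 1.98) and Bmf at 0.870 (0.542 to 1.24). Of neighbours in this order, only Bid and Bcl2l11 did not overlap in range. With the coding length of the principal transcript in place of exon length, an alternative chosen after seeing the files, Bcl2l1 came before Mcl1, Bcl2 and Bcl2l2 came before Bik, and Bmf came before Bak1. The places of Bcl2l1 and Bad on the exon scale differed between conditions in LGR5+ cells. In untreated LGR5+ cells Bcl2l1 was at 18.7 ± 1.45 and Bad at 30.5 ± 1.30 CPM per kilobase (SD, n = 3), whereas in LGR5+ cells after 5-FU they were at 39.8 ± 6.09 and 33.6 ± 3.08. In LGR5- cells Bad had the higher mean of the pair under both conditions, 32.8 against 17.5 untreated and 38.2 against 31.7 after 5-FU. In 5-FU-treated LGR5- replicate 2, though not in replicates 1 and 3, Bcl2l1 was the higher (41.8 against 37.8). With coding length (699 bases for Bcl2l1, 612 for Bad), Bcl2l1 had the higher mean after 5-FU in LGR5- cells too. This difference between the populations is thus not seen on that scale.

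**Figure D1:**
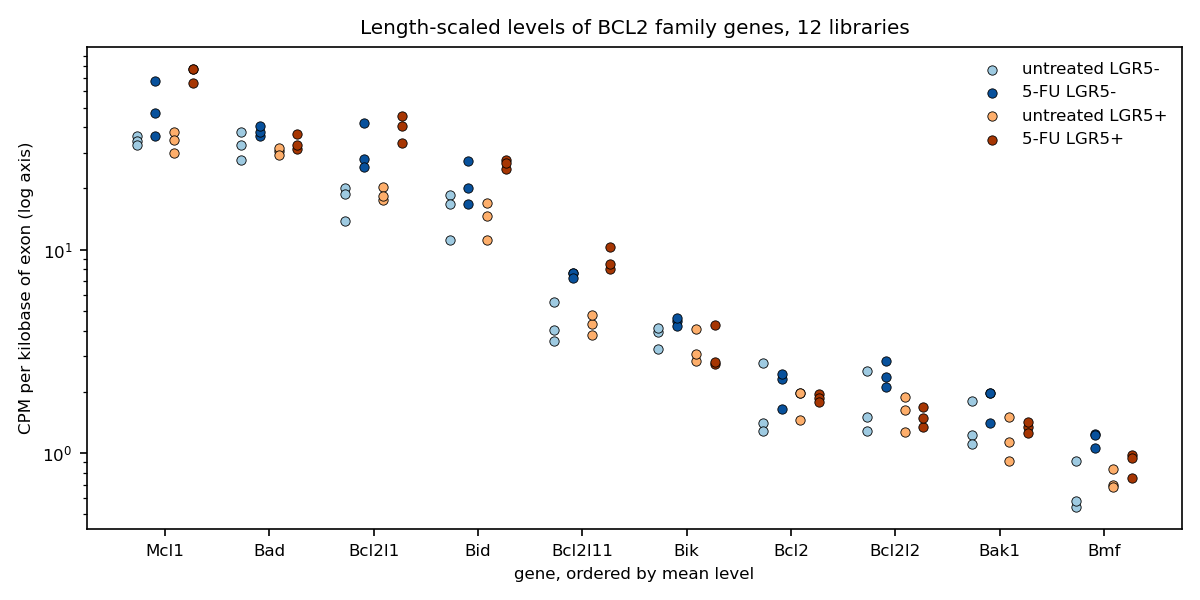
Each point is the level of one gene in one library, in CPM per kilobase of exon on a log axis, with genes ordered by their mean over the 12 libraries and colors marking the 4 groups. Mcl1, Bad, Bcl2l1 and Bid lie above the other members in every library, and Bmf has the lowest mean, 0.870.

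The first question was which family genes differed in level between 5-FU-treated and untreated cells of each population. In LGR5+ cells 4 of the 10 members rose, namely Mcl1, Bcl2l1, Bcl2l11 and Bid, with log2 fold changes of 0.89 to 1.11. No member fell. In edgeR's quasi-likelihood test at an adjusted P under 0.05, this was 40.0% of the members called higher where 9.66% of all genes tested were called higher and 6.37% lower. In LGR5- cells 2 of the 10 rose, Bcl2l1 and Bcl2l11, which is 20% against 8.30% of all genes higher and 7.11% lower, and again no member fell. With only the 6 LGR5- libraries fitted, 0 members were called in LGR5- cells. The share of all genes called in that fit is not given here, so this 0 cannot be read as particular to the members. The median log2 fold change of the members was 0.23 in LGR5+ and 0.46 in LGR5- cells, beside -0.02 and -0.05 over all genes tested. The study's methods set a limit of 1.5 on the size of the log2 fold change beside an unadjusted P of 0.05, which 7.23% and 7.00% of all genes met, and 0 members passed it in either population. Since libraries are bulk samples of sorted cells, a different mix of cell types or states and a different amount of RNA per cell cannot be told apart in any of these values.

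**Figure D2:**
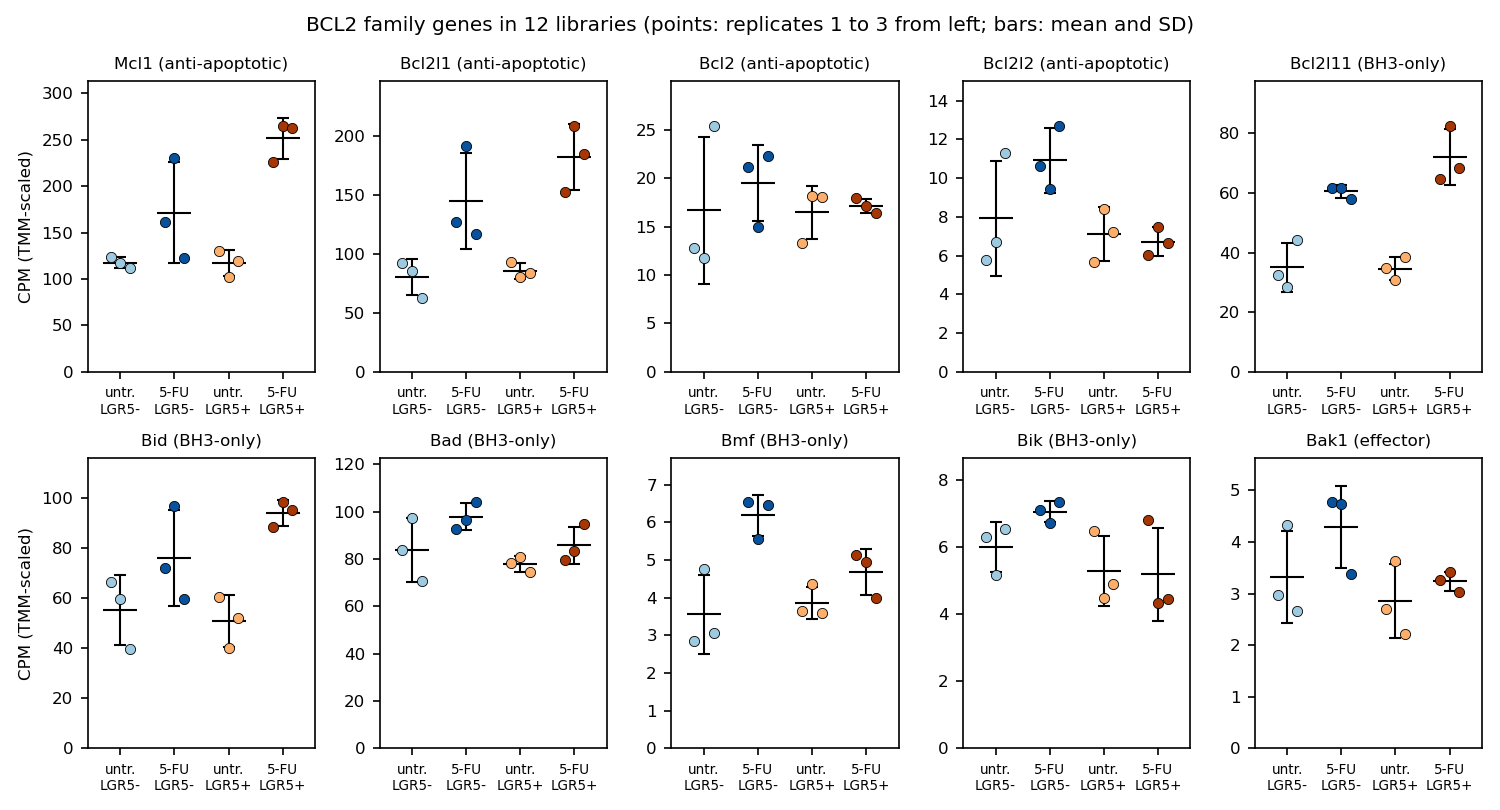
Points give TMM-scaled CPM of each member in 12 libraries, 3 per group with replicates 1 to 3 from left to right, and bars give the mean and SD. For Mcl1, Bcl2l1, Bcl2l11 and Bid the 3 LGR5+ libraries after 5-FU lie above all untreated LGR5+ libraries, and each vertical axis starts at 0.

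Mcl1 encodes a short-lived anti-apoptotic protein that binds BIM and BAK. Its level was 130, 102 and 119 CPM in untreated LGR5+ and 226, 265 and 263 CPM in 5-FU-treated LGR5+ replicates 1 to 3. The lowest treated library was thus well above the highest untreated one, and 22.3% of all genes had treated LGR5+ libraries that all lay higher. The log2 fold change was 1.11 (SE 0.21, edgeR adjusted P = 0.00268). In LGR5- cells Mcl1 was at 124, 117 and 112 CPM untreated and at 161, 230 and 123 CPM after 5-FU. Replicate 3 after 5-FU lay just under the highest untreated library, while replicate 2 stood far above the others. The log2 fold change of 0.54 (SE 0.21) did not pass the test (edgeR adjusted P = 0.103). Without 5-FU-treated LGR5- replicate 3, it was 0.77 and passed (adjusted P = 0.0181), without both LGR5- libraries of high mitochondrial share it was 0.70 (adjusted P = 0.0226), and without 5-FU-treated replicate 2 it was 0.27.

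Bcl2l1, which encodes BCL-XL, was at 93.0, 80.2 and 83.7 CPM in untreated and 153, 209 and 185 CPM in 5-FU-treated LGR5+ libraries. In LGR5- cells it was at 92.1, 85.9 and 63.1 CPM untreated and at 127, 192 and 117 CPM after 5-FU. Treated libraries were higher than all untreated ones in both populations, with LGR5- replicate 3 the lowest of its group under both conditions. Among all genes, 13.7% had treated LGR5- libraries that all lay higher. The log2 fold change was 1.09 (SE 0.22, edgeR adjusted P = 0.00353) in LGR5+ and 0.86 (SE 0.22, edgeR adjusted P = 0.0161) in LGR5- cells. The LGR5- call was lost with only the LGR5- libraries fitted (0.86, adjusted P = 0.0771) and without 5-FU-treated LGR5- replicate 2 (0.60, adjusted P = 0.0912), and without both LGR5- libraries of high mitochondrial share the value was 0.84 (adjusted P = 0.0123).

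The other anti-apoptotic members were far less abundant and did not pass the test in either population. Bcl2 was at 13.3, 18.1 and 18 CPM in untreated and 17.9, 17.1 and 16.4 CPM in treated LGR5+ libraries, and at 12.8, 11.8 and 25.4 CPM in untreated and 21.1, 15 and 22.3 CPM in treated LGR5- libraries. The groups overlapped in both populations, and untreated LGR5- replicate 3, the library of high mitochondrial share, had the highest Bcl2 of all 12. Log2 fold changes were 0.06 (SE 0.27) and 0.22 (SE 0.27) in LGR5+ and LGR5- cells.

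Bcl2l2, which encodes BCL-W, was at 5.66, 8.42 and 7.23 CPM in untreated and 6.02, 7.48 and 6.66 CPM in treated LGR5+ libraries. The LGR5- libraries were at 5.76, 6.69 and 11.3 CPM untreated and at 10.6, 9.43 and 12.7 CPM after 5-FU. Here too untreated LGR5- replicate 3 stood above the other untreated libraries, and the groups overlapped. Log2 fold changes were -0.08 (SE 0.27) in LGR5+ and 0.46 (SE 0.26, edgeR adjusted P = 0.273) in LGR5- cells. Without untreated LGR5- replicate 3, Bcl2 (0.66, adjusted P = 0.0411) and Bcl2l2 (0.80, adjusted P = 0.0308) passed the test in LGR5- cells; without both libraries of high mitochondrial share they were at 0.56 and 0.68 and did not pass (adjusted P = 0.0917 and 0.0739). Of the exon bases of Bcl2l2, 13.3% are shared with Gm20521 on the same strand, so part of its count depends on how the authors assigned those reads.

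Summed over the anti-apoptotic members on the CPM per kilobase scale, levels were 55.6 ± 3.6 in untreated LGR5- and 56.2 ± 4.91 in untreated LGR5+ cells, and 86.5 ± 23.8 and 117 ± 12.1 after 5-FU (SD, n = 3). Mcl1 made up 57.6% to 63.1% of this sum in the group means and Bcl2l1 31.4% to 36.7%. Bcl2 took 1.62% to 3.34% and Bcl2l2 took 1.29% to 3.25%. The anti-apoptotic RNA of these cells was thus mostly Mcl1 and Bcl2l1 under every condition on this scale.

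Of the BH3-only members, Bcl2l11 encodes BIM, which binds all anti-apoptotic members and can activate the effectors directly. It was at 34.7, 30.7 and 38.5 CPM in untreated and 64.8, 82.5 and 68.5 CPM in treated LGR5+ libraries. The LGR5- values were 32.5, 28.5 and 44.3 CPM untreated and at 61.7, 61.8 and 58.0 CPM after 5-FU. Every treated library of either population exceeded every untreated one. The log2 fold change was 1.05 (SE 0.19, edgeR adjusted P = 0.0014) in LGR5+ and 0.79 (SE 0.18, edgeR adjusted P = 0.0102) in LGR5- cells. Without both LGR5- libraries of high mitochondrial share the LGR5- value was 1.02 (adjusted P = 0.00151), and the call was lost without untreated LGR5- replicate 2 (0.66, adjusted P = 0.0549) and with only the LGR5- libraries fitted (0.79, adjusted P = 0.0583).

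Bid links death receptors to mitochondria once caspase-8 has cut its protein. Its level was 60.3, 39.8 and 51.9 CPM in untreated and 88.2, 98.1 and 95.1 CPM in treated LGR5+ libraries, with no overlap. In LGR5- cells it was at 66.2, 59.5 and 39.5 CPM untreated and at 71.7, 96.7 and 59.4 CPM after 5-FU. Replicate 3 was lowest in both LGR5- groups and its treated library overlapped the untreated ones. The log2 fold change was 0.89 (SE 0.23, edgeR adjusted P = 0.0165) in LGR5+ and 0.46 (SE 0.23, edgeR adjusted P = 0.198) in LGR5- cells. The LGR5- value was 0.65 without 5-FU-treated replicate 3 (adjusted P = 0.0908) and 0.42 without both libraries of high mitochondrial share (adjusted P = 0.164). The LGR5+ call was lost without untreated replicate 2 (0.74, adjusted P = 0.0853) or 3 (0.91, 0.059) and without treated replicate 2 (0.86, 0.0677) or 3 (0.88, 0.0607). On the other strand, Bcl2l13 overlaps 17.7% of the exon bases of Bid, and whether counting used the strand is not given in the sources used here.

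Bmf, whose protein is bound to the cytoskeleton in healthy cells, was at 3.64, 4.36 and 3.58 CPM in untreated and 5.12, 4.95 and 3.98 CPM in treated LGR5+ libraries. LGR5- libraries held 2.85, 4.77 and 3.05 CPM untreated and at 6.53, 5.56 and 6.46 CPM after 5-FU. The treated libraries were all higher in LGR5- cells, while the groups overlapped in LGR5+ cells. The log2 fold changes were 0.79 (SE 0.27, edgeR adjusted P = 0.0594) in LGR5- and 0.28 (SE 0.27, edgeR adjusted P = 0.532) in LGR5+ cells. The LGR5- value was past the threshold in DESeq2 (0.81, adjusted P = 0.0228), where only genes with 10 or more reads in each library were kept (0.82, adjusted P = 0.0443) and without untreated LGR5- replicate 2 (1.06, adjusted P = 0.031), and it was 0.66 without both libraries of high mitochondrial share (adjusted P = 0.146).

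Bad, whose protein is held inactive by growth factor signaling, was the most abundant BH3-only member. It was at 78.2, 81.0 and 74.4 CPM in untreated and 79.6, 83.3 and 94.7 CPM in treated LGR5+ libraries, and at 83.7, 97.5 and 70.6 CPM in untreated and 92.8, 96.6 and 104 CPM in treated LGR5- libraries. The groups overlapped in both populations. Its log2 fold changes were 0.14 (95% interval -0.21 to 0.49) and 0.22 (-0.13 to 0.57), the narrowest intervals among the members, and the LGR5- value was 0.06 without both libraries of high mitochondrial share. Exons of Gpr137 on the other strand overlap 20.5% of the exon bases of Bad.

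Bik, whose protein sits at the endoplasmic reticulum, was at 6.47, 4.49 and 4.90 CPM in untreated and 6.80, 4.35 and 4.44 CPM in treated LGR5+ libraries. In LGR5- cells it was at 6.30, 5.16 and 6.55 CPM untreated and at 7.12, 6.73 and 7.34 CPM after 5-FU. Treated LGR5- libraries were all higher, though by little, and LGR5+ groups overlapped. Log2 fold changes were -0.02 (95% interval -0.56 to 0.51) in LGR5+ and 0.23 (-0.30 to 0.77) in LGR5- cells, and neither passed the test. The LGR5- value was 0.27 without both libraries of high mitochondrial share.

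Bak1, the effector among the members, was at 2.71, 3.63 and 2.21 CPM in untreated and 3.26, 3.41 and 3.04 CPM in treated LGR5+ libraries. It was at 2.97, 4.33 and 2.67 CPM in untreated and 4.77, 4.74 and 3.37 CPM in treated LGR5- libraries. The groups overlapped in both populations. Log2 fold changes were 0.18 (95% interval -0.47 to 0.84) and 0.37 (-0.27 to 1.01) in LGR5+ and LGR5- cells, and the LGR5- value was 0.38 without both libraries of high mitochondrial share. Exons of Ggnbp1 on the other strand overlap 25.5% of the exon bases of Bak1. The summed BH3-only level went from 53.1 ± 3.23 to 73.1 ± 3.41 CPM per kilobase in LGR5+ cells and from 57.1 ± 7.26 to 72.8 ± 4.54 in LGR5- cells (SD, n = 3), with treated libraries above untreated ones in both.

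**Figure D3:**
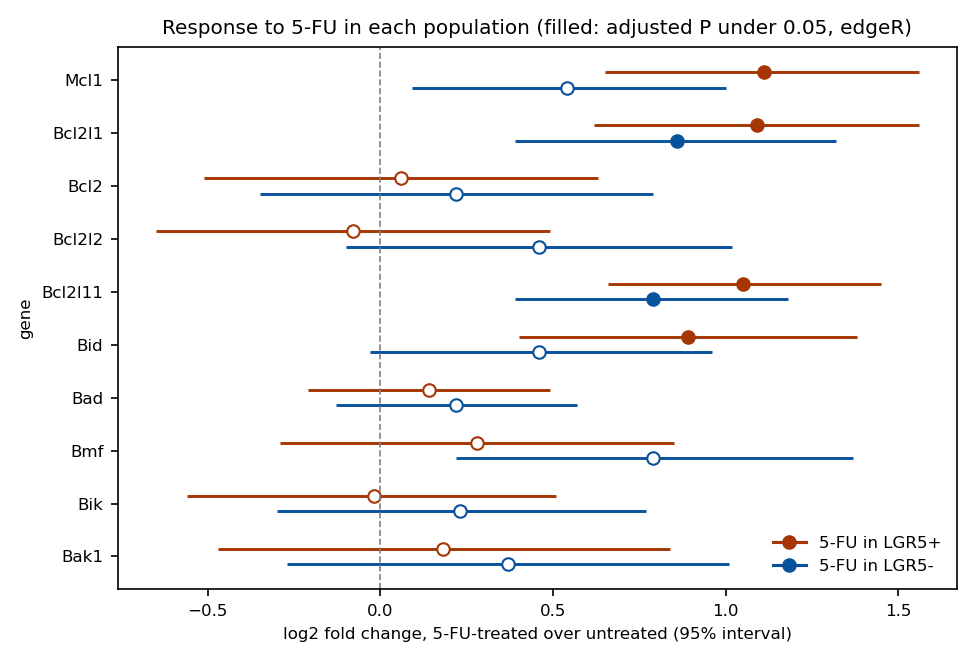
Points give the log2 fold change of 5-FU-treated over untreated cells for each member in LGR5+ and LGR5- cells, lines give the 95% interval, and filled points have an edgeR adjusted P under 0.05. Filled points are Mcl1, Bcl2l1, Bcl2l11 and Bid in LGR5+ and Bcl2l1 and Bcl2l11 in LGR5- cells, and the intervals of the populations overlap for every gene.

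The next question was whether the populations responded to 5-FU to a different degree. No member passed the test of the difference between responses. In edgeR 0 of 10 members were called, against 0% of all genes tested, and 0 members had an unadjusted P under 0.05 (1.57% of all genes did). DESeq2 also called 0 members, and its share over all genes is not given here. Mcl1 had the largest difference, LGR5+ minus LGR5-, at 0.56 on the log2 scale (95% interval -0.08 to 1.20). Those of Bid (0.42, -0.27 to 1.12), Bcl2l11 (0.27, -0.29 to 0.82) and Bcl2l1 (0.23, -0.42 to 0.89) were also positive, and those of Bcl2l2 (-0.54, -1.34 to 0.26) and Bmf (-0.52, -1.32 to 0.29) were negative. Every interval held 0, and so the calls of Mcl1 and Bid in LGR5+ cells alone do not show that their response was particular to that population.

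LGR5+ and LGR5- cells were then compared under each condition. Without treatment, the levels of the members were close. In edgeR 0 of 10 members were called, against 0% of all genes, and 0 had an unadjusted P under 0.05 (1.32% of all genes did). DESeq2 called 0 members, and its share over all genes is not given here. The libraries overlapped for every member (LGR5+ libraries were all higher for 2.70% and all lower for 2.57% of all genes). The count stayed at 0 with each untreated library left out in turn, the closely alike replicates 1 included. Log2 differences, LGR5+ minus LGR5-, ran from -0.22 for Bak1 to 0.12 for Bmf. Mcl1 (-0.01, 95% interval -0.47 to 0.44), Bcl2l11 (-0.02, -0.41 to 0.38) and Bcl2 (-0.02, -0.59 to 0.55) were nearest to 0. The widest interval was that of Bak1, from -0.87 to 0.43.

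After 5-FU the log2 differences ran from -0.70 for Bcl2l2 to 0.55 for Mcl1, and 0 of 10 members were called in edgeR, against 0% of all genes. DESeq2 called 0 members, and its share over all genes is not given here. At an unadjusted P under 0.05, a level that 13.0% of all genes reached, there were 2 members. Bcl2l2 was lower in every LGR5+ library (6.02 to 7.48 CPM) than in every LGR5- library (9.43 to 12.7 CPM), with a log2 difference of -0.70 (95% interval -1.26 to -0.13, edgeR adjusted P = 0.357). Mcl1 was at 226 to 265 CPM in LGR5+ and 123 to 230 CPM in LGR5- libraries, which overlapped, with a log2 difference of 0.55 (0.10 to 1.0, edgeR adjusted P = 0.357). Without 5-FU-treated LGR5- replicate 3 the Bcl2l2 difference was -0.61 and the Mcl1 difference 0.33, and without replicate 2 that of Mcl1 was 0.83. Bmf was also lower in all LGR5+ libraries (3.98 to 5.12 against 5.56 to 6.53 CPM), and Bcl2l11 was higher in all of them (64.8 to 82.5 against 58.0 to 61.8 CPM). LGR5+ libraries were all lower for 10.2% and all higher for 14.2% of all genes. These comparisons use the same treated libraries as the responses to 5-FU, so the values of one bear on the other.

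The family genes outside the 10 members give the setting of these values. Bax, the other main effector, was higher after 5-FU in both populations (1.01 and 0.93 in LGR5+ and LGR5- cells), as was Bbc3 (1.51 and 1.72), which encodes the BH3-only protein PUMA. Pmaip1, which encodes NOXA, a BH3-only partner of MCL1, was higher in LGR5+ cells (1.20, edgeR adjusted P = 0.0255) and at 0.95 in LGR5- cells (edgeR adjusted P = 0.0781). Bok, an effector-like member, fell by 1.31 and by 1.71 on the log2 scale and passed the test in both populations. Bcl2l14, a family member by sequence, rose by 1.34 and 1.13. The low-count filter removed the remaining anti-apoptotic genes of the list, Bcl2a1a, Bcl2a1b, Bcl2a1d and Bcl2l10, which held at most 8 reads in any library, and also Hrk and Bcl2l15. Bnip3, Bnip3l, Bcl2l12 and Bcl2l13 did not pass in either population.

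Downstream of the mitochondria, among genes for released factors and caspases, Endog, a mitochondrial nuclease, fell by 0.81 on the log2 scale in LGR5+ cells (edgeR adjusted P = 0.0489) and was at -0.56 in LGR5- cells without passing. Aifm1, a mitochondrial flavoprotein, was at -0.25 and -0.62 in LGR5+ and LGR5- cells without passing. Of 5 inhibitor of apoptosis genes, only Birc5 passed, the gene of survivin, a protein of dividing cells: it fell by 1.12 in LGR5+ and by 1.17 in LGR5- cells. Of 9 death receptor genes, 2 rose in both populations, none fell, and those were Fas (3.20 and 3.09) and Tnfrsf10b (1.09 and 0.96), which encode receptors that can act through BID. No gene passed in either population among 4 genes for turnover of the MCL1 protein (Usp9x, Huwe1, Fbxw7 and Btrc) or among the 3 Vdac genes, which encode outer membrane channels. Of 7 genes for transcription factors that act on the family, 6 were tested. Jun rose in both populations (1.36 and 0.89), Foxo1 rose in LGR5- cells (0.68, and 0.46 in LGR5+ cells without passing), and E2f1 fell by 1.36 in LGR5- cells (-0.81 in LGR5+ cells without passing).

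**Figure D4:**
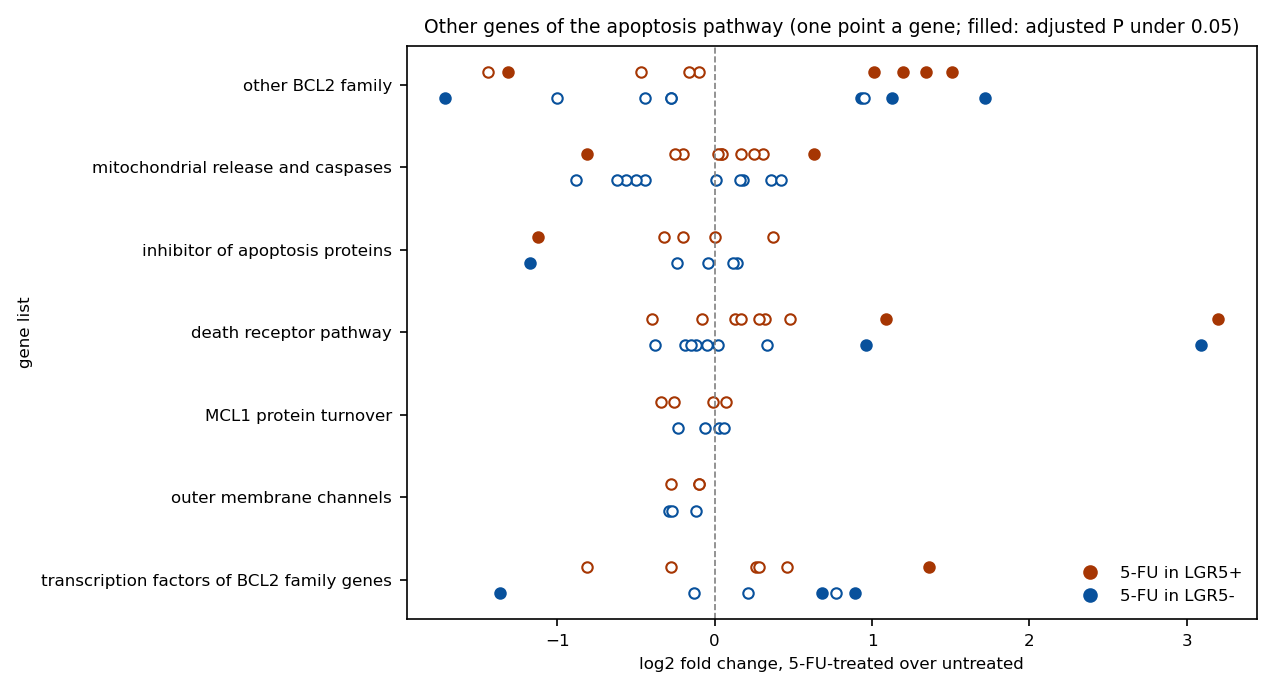
Each point is one gene of a pathway list, placed at its log2 fold change of 5-FU-treated over untreated cells in LGR5+ and LGR5- cells, and filled where the edgeR adjusted P was under 0.05. Fas stands apart at 3.20 and 3.09, and in the MCL1 turnover and outer membrane channel lists no point is filled.

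Markers of cell types and states also moved with 5-FU. The organoid cells had cholangiocyte markers (Krt19, Krt7, Epcam, Sox9 and Spp1) at a summed 2360 to 3090 CPM untreated and 3410 to 11900 CPM after 5-FU, and 2 of these 5 genes, Krt19 and Krt7, rose in each population. Of 5 hepatocyte markers, Hnf4a and Ttr held at most 3 reads in any library, and the sum, mostly Afp, was 10.5 to 22.4 CPM untreated and 26.0 to 56.4 CPM after 5-FU. Afp, the one called of 2 tested, rose by 1.31 in LGR5+ and by 1.43 in LGR5- cells on the log2 scale. All 3 squamous keratins (Krt5, Krt14 and Krt6a) rose in both populations, their sum going from 27.4 to 84.5 CPM untreated to 147 to 430 CPM in LGR5- and 670 to 1210 CPM in LGR5+ cells after 5-FU. Macrophage markers summed to 32.1 to 66.5 CPM untreated and 45.3 to 115 CPM after 5-FU, with Cd68 the one called of 3 tested out of 7, and their pan-leucocyte gene Ptprc stayed at 0.165 to 2.02 CPM. That sum was mostly Cd14 and Cd68, while Adgre1, Csf1r, C1qa and C1qb held at most 11 reads in any library. Of 4 lymphocyte markers 3 were at 0 in all libraries. Lung epithelium markers, led by Sftpc, were high in every group, at a summed 3510 to 17400 CPM untreated and 2720 to 6140 CPM after 5-FU, and 0 of 4 were called. The sums of fibroblast (26.8 to 60.7 CPM) and endothelial (1.67 to 4.06 CPM) markers overlapped between treated and untreated libraries, with 1 of 3 fibroblast markers tested, Pdgfrb, lower in each population. The fibroblast sum was mostly Dcn, and Col1a1, Col1a2 and Col3a1 held at most 11 reads in any library. The part of these cell states in the values of Mcl1, Bcl2l1, Bcl2l11 and Bid was not tested.

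Over the 12 libraries the members that rose also varied together. On log2 CPM, Pearson's r was 0.95 between Bcl2l1 and Mcl1, 0.94 between Bcl2l1 and Bid, 0.93 between Mcl1 and Bid, 0.85 between Mcl1 and Bcl2l11, 0.84 between Bcl2l1 and Bcl2l11 and 0.73 between Bcl2l11 and Bid. Among Bmf, Bad and Bak1, r was 0.68 to 0.73, and Bcl2 was closest to Bcl2l2 at 0.77. The lowest value was -0.30, between Bcl2 and Bid. These values describe points that share treatment, population and library effects.

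For each member the most similar gene outside the 10 members was sought among the genes tested, by r over the same 12 libraries. It was Dhrs1 for Bcl2l1 (r = 0.994), Wsb2 for Mcl1 (0.987), Cdc42ep1 for Bid (0.983), Mus81 for Bcl2l11 (0.976), Trim24 for Bcl2l2 (0.975) and Slc25a36 for Bcl2 (0.966). For the remaining members it was Wwp1 for Bmf (0.965), Taf10 for Bad (0.956), Cdv3 for Bak1 (0.944) and H2-T10 for Bik (0.879). Next in order came Ttc9 for Bcl2l1 (0.990) and Plxdc2 for Mcl1 (0.978). Bik had the lowest best match. Each of these r is the highest found among all genes tested over only 12 points, so it is high partly through that selection. The values are a description, and a link between the genes was not tested.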

How the data were processed

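RNA of sorted LGR5+ and LGR5- liver cancer organoid cells was isolated, amplified with a SMART-type cDNA kit and sequenced as paired ends. The authors deposited 1 table of raw read counts per Ensembl gene for 12 libraries, without normalization. The submitters' processing notes name HISAT2, HISAT, TopHat2 and HTSeq, without roles or versions, and the build mm8; the annotation and strand setting of the counting were not given in the sources used here. Identifiers were matched to GENCODE M21 (46488 of 47069), and positions are those of GRCm38.

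Groups came from the labels. In R 4.3.3, counts were filtered by filterByExpr (16157 genes kept), then scaled by TMM; edgeR 4.0.16 fitted 4 group means over 12 libraries (robust glmQLFit), and 5 contrasts were tested by glmQLFTest with Benjamini-Hochberg adjustment over all genes. The standard error is the size of the log2 fold change over the root of F. A count of 0 was read as up to 3 reads. Correlations used log2 CPM with a prior count of 1. Counts differed by more than sampling noise between all pairs of libraries (chi-square per degree of freedom of 4.42 or more). Alternatives were other filters and scalings, DESeq2 1.42.0, fits on fewer libraries, a replicate block and other gene lengths. Scripts were tested on simulated data.

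The members, lists and tests were chosen with earlier results of these data known. Named were all members, up to 3 genes per list with the smallest P over both 5-FU contrasts, and up to 2 genes most alike per member; further list genes were named after their values were seen. A gene of the pathway lists is not reported here.

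Deviations from group means correlated between same-numbered libraries of 5-FU-treated LGR5- and LGR5+ cells (0.54, 0.20 and 0.28), so the numbers were taken to pair these 2 groups, a pairing read from the data and not from the labels. Other group pairs held at least 1 correlation of 0.1 or less.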

Additional observations from a re-analysis of the deposited data

How the results depend on the processing

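Across 5 comparisons, 10 members and all alternatives, 780 log2 fold changes were recomputed: 733 kept their direction and side of the threshold, 8 lost a call, 7 gained one and 32 changed sign, none of the last called. In LGR5+ cells the count of members called after 5-FU was 4 in every alternative run except the fits without 1 library, which gave 3 to 4. Calls over all genes moved as well, from 2590 in the main fit. Among fits that called 3 members they were 1807 without untreated replicate 2, 1586 without untreated replicate 3 and 1451 without treated replicate 2. Without untreated or treated replicate 1, where 4 members were called, they were 1988 and 2488. In LGR5- cells the count of members called was 2 to 3 in most alternatives. It became 0 when only the 6 libraries compared were fitted (Bcl2l1 edgeR adjusted P = 0.0771, Bcl2l11 edgeR adjusted P = 0.0583), and the cause was not tested. It was 1 to 4 when 1 library was left out, the extremes being 5-FU-treated replicate 2 and untreated replicate 3 of LGR5- cells. The shares of all genes called in these LGR5- fits are not given here, so the counts cannot be read as particular to the members.

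Blocking on the replicate number over all libraries left 4 and 2 members called after 5-FU, and 0 between the populations. In the paired comparison after 5-FU, with the block within treatment, 0 members were called (Bcl2l2 -0.69, Mcl1 0.59). The block changed no call.

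Between untreated populations signs changed without the filter (Bcl2 0.03, Mcl1 0.02, Bcl2l11 0.03), with a block over all libraries (Bcl2 0.04) or within treatment (Bcl2 0.05), and without both LGR5- libraries of high mitochondrial share (Bcl2 0.42, Bcl2l1 -0.05, Bcl2l2 0.19, Bcl2l11 0.18). Without those libraries the difference of responses of Bad was 0.08, and with library size scaling only, Bcl2 in LGR5+ cells was at -0.03. The cause was not tested. With 1 library left out, values that changed sign ranged, between untreated populations, over -0.22 to 0.02 (Bad), -0.43 to 0.02 (Bak1), -0.21 to 0.42 (Bcl2), -0.05 to 0.21 (Bcl2l1), -0.14 to 0.18 (Bcl2l11), -0.33 to 0.19 (Bcl2l2), -0.31 to 0.04 (Bid), -0.02 to 0.39 (Bmf) and -0.09 to 0.08 (Mcl1). After 5-FU in LGR5+ cells they ranged over -0.07 to 0.13 (Bcl2), -0.21 to 0.06 (Bcl2l2) and -0.26 to 0.15 (Bik), and for the difference of responses over -0.20 to 0.03 (Bad), -0.42 to 0.03 (Bak1) and -0.60 to 0.03 (Bcl2). The coding length of the RefSeq protein was not run because no such table was given. The members of lowest count were Bmf and Bak1, at 2.21 to 6.53 CPM.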
